A study of Mus musculus with 4 samples.

Results

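MHC-II-high macrophages without Lyve1 or Ccr2 transcripts were examined in the uninjured mouse heart by single-cell RNA sequencing. A cell belonged to the population when it had 0 unique molecular identifiers (UMIs, the counted transcript molecules) of Lyve1, Cd163, Ccr2 and Ly6c2, at least 30 UMIs of C1qa, C1qb and C1qc together per 10000 UMIs, and at least 50 UMIs of H2-Aa, H2-Ab1 and H2-Eb1 together per 10000. In the baseline library 828 of 10238 cells met the rule, which is 8.09% (exact 95% binomial interval 7.57 to 8.63, counting error only), out of 41533 cells in all 4 libraries. The comparison population held the 2726 baseline cells with a Lyve1 UMI and the same C1q level. All mice carried the CSF1R-EGFP reporter, in which EGFP is driven by the mouse Csf1r promoter, and were 12 to 16 weeks old. The baseline library pooled the hearts of 3 mice that had no surgery, whereas each of the 3 infarct libraries came from 1 heart harvested 7 days after ligation of the left coronary artery, with the remote zone removed. EGFP+ Ly6G-negative cells were sorted, so every share is a share of sorted cells and not of the heart. Because the hearts of the baseline library were pooled, it gives 1 value per gene and allows no test.

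Cardiac macrophages include long-lived resident cells, of which many carry LYVE1, TIMD4 and FOLR2, and cells replaced from blood monocytes, many of which carry CCR2. A further population with high MHC class II and neither LYVE1 nor CCR2 is recognised in the mouse heart. MHC class II molecules are heterodimers, here the alpha chain encoded by H2-Aa and the beta chains encoded by H2-Ab1 and H2-Eb1, that display peptides to CD4 T cells. Cd74 encodes the invariant chain that escorts them, H2-DMa and H2-DMb1 the DM chaperone that loads the peptide, and Ciita the transactivator that acts through factors bound at conserved boxes in the class II promoters.

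The promoters of H2-Aa and H2-Eb1, which chose the cells, and of H2-DMb1, which did not, are shown from 120 bases before the RefSeq transcript start up to it (GRCm38.p6, printed 5′ to 3′ on the strand of the gene). Capitals mark 2 letter strings found on either strand, TGATTGG and GATGATG, which do not overlap and which were written down after these windows were read.
H2-Aa, chr17:34287824-34287943, strand -: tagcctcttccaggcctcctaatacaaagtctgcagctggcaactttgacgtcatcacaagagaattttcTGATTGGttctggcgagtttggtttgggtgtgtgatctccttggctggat
H2-Eb1, chr17:34305747-34305866, strand +: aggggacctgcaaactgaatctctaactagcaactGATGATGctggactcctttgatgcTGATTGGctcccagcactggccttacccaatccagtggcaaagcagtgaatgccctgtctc
H2-DMb1, chr17:34153071-34153190, strand +: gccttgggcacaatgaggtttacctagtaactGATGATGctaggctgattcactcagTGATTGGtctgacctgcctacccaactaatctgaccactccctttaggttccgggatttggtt
TGATTGG starts 50 bases before the start of H2-Aa, 61 before that of H2-Eb1 and 63 before that of H2-DMb1. GATGATG starts 85 bases before H2-Eb1 and 88 before H2-DMb1, and these letters were not in the H2-Aa window. A promoter window from 250 bases before to 50 after the start was at hand for 13 of the 19 genes of the MHC class II list, and 8 of the 13 held TGATTGG and 3 held GATGATG. Over all 32851 mouse windows 7.82% held the first string, 3.48% the second and 0.237% both. H2-Ab1, Cd74 and Ciita have no entry. A match is a description of letters, not a bound site.

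The baseline library held 70982109 UMIs in the cells kept, with a median of 6398.5 UMIs per cell, and the infarct libraries held medians of 8469.5 to 8556.5. Pairs of libraries shared 26 to 34 cell barcodes, at most 0.332% of a library's cells. Of the 10238 baseline cells, 6672 had the C1q level. Among these, 3946 had no Lyve1 UMI, 2111 also had no Cd163 UMI, 1120 also had no Ccr2 UMI and 1112 also had no Ly6c2 UMI. Of the 1112 cells, 828 passed the MHC class II limit and 284 did not.

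The cells were selected on their own counts of Lyve1, Cd163, Ccr2, Ly6c2, C1q and class II transcripts, and those values are given as a description only. Summed over the cells, H2-Aa stood at 9212 CPM (UMIs of the gene per 1000000 non-mitochondrial UMIs), H2-Ab1 at 8579 and H2-Eb1 at 8560, against 2790, 2530 and 2400 CPM in the Lyve1+ cells. The 3 genes together ranged from 50.1 to 691 UMIs per 10000 with a median of 239. In Lyve1+ cells the median was 19.1, with the upper quartile at 121, so the Lyve1+ cells themselves spread from class II-poor to class II-rich. The median C1q level was 132 per 10000 against 145. Just inside the MHC class II limit lay 16 cells of 50 to 60 per 10000 with 7692 CPM of Cd74 and 1145 CPM of Il1b. Just outside it lay 23 cells of 40 to 50 per 10000 with 7680 and 899 CPM. The cells just inside were shallower, with a median of 2918.5 against 5074 UMIs, and differed in other genes, with 710 against 306 CPM of F13a1, 114 against 352 CPM of Nes and 160 against 408 CPM of Cd72. At the C1q limit 15 cells lay just inside and 23 just outside. Il1b was at 400 CPM just inside against 1436 just outside, Cx3cr1 at 331 against 1057 and Col14a1 at 34.8 against 271 CPM. Rgs1 ran the other way, at 3151 against 2628 CPM. Median depths were 2118 and 1499 UMIs, with median mitochondrial shares of 11.3 and 17.1%.

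**Figure D1:**
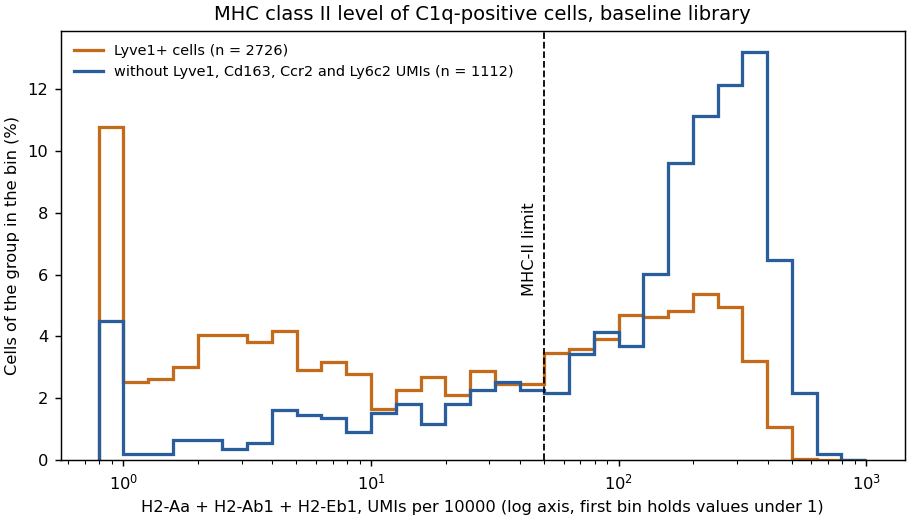
Summed H2-Aa, H2-Ab1 and H2-Eb1 level per cell (x axis, UMIs per 10000, log axis) in C1q-positive baseline cells, as the percentage of each group in a bin (y axis). Most of the 1112 cells without Lyve1, Cd163, Ccr2 and Ly6c2 UMIs lie right of the dashed limit at 50 per 10000, whereas the 2726 Lyve1+ cells are spread on both sides of it.

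Of 15 macrophage marker genes tested against the Lyve1+ cells, 13 stayed within 2-fold, 1 was higher, Cx3cr1 (930 against 322 CPM), and 1 was lower, Itgam (120 against 245 CPM), with a median log2 ratio of 0.04. Over all 6071 genes tested, 1.84% were 2-fold or more higher and 2.83% lower. Csf1r, the receptor of colony-stimulating factor 1, stood at 1297 CPM (exact 95% Poisson interval 1262 to 1333) against 1385 CPM (1369 to 1400). Adgre1, which encodes F4/80, stood at 451 against 409 CPM, Cd68 at 465 against 451 CPM, and Fcgr1, which encodes CD64, at 181 against 175 CPM. Mertk, the receptor kinase for apoptotic cells, stood at 68.8 against 97.0 CPM. These defining genes were all present at the summed level.

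Of the dendritic cell list, Flt3 stood at 0.987 CPM, Xcr1 at 0.247, Cd209a at 0.740 and Zbtb46 at 3.45 CPM, and the summed list reached 271 CPM against 290 CPM in Lyve1+ cells. Of the 5 list genes tested, 1 was higher and 1 lower. The higher gene was Itgax, which encodes CD11c and is shared by macrophages and dendritic cells, at 44.9 against 11.3 CPM. Ccr7, too low to be tested, was at 6.17 against 2.35 CPM. Of the B cell genes, Cd79a stood at 14.1 against 1.57 CPM and Cd79b at 50.6 against 19.4 CPM, while the summed B cell list was 488 against 500 CPM. All 57 Cd79a UMIs of the MHC-II-high macrophages came from 7 cells, whereas 151 cells held their Cd79b UMIs. The summed monocyte list was 220 against 526 CPM, of which Ccr2 (197 CPM in the Lyve1+ cells) and Ly6c2 are at 0 by the rule. Of its 4 genes tested, Spn, which encodes CD43, was higher at 60.9 against 25.5 CPM, and 2 were lower. Leaving out the 15 cells with dendritic or B cell UMIs left 813 cells and 113 and 172 genes at the thresholds used below, in place of 112 and 172.

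A rule that asks for 0 UMIs is met more easily by a cell with few UMIs. The median was 5019 UMIs per cell in the MHC-II-high macrophages and 7901.5 in the Lyve1+ cells. The population made up 8.50% of cells with 500 to 2000 UMIs, 11.1% of those with 2000 to 4000, 11.6% of those with 4000 to 8000 and 2.35% of those with 8000 or more. Its 106 cells under 2000 UMIs had a median mitochondrial share of 7.22% and carried 193 CPM of Folr2 and 598 CPM of F13a1. The 3 deeper classes had mitochondrial shares of 4.50 to 4.61%, 48.3 to 59.3 CPM of Folr2 and 233 to 345 CPM of F13a1. A Lyve1 UMI was also found in 7 of 88 cells gated as B cells (7.95%), whether from free RNA or from doublets was not tested, and 22.6% of the Lyve1+ cells had exactly 1 Lyve1 UMI. Of the Lyve1+ cells, 19.8% also held a Ccr2 UMI.

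To ask what else distinguishes the MHC-II-high macrophages, the 6071 genes that averaged 20 CPM or more over both sums, the rule's own genes set aside, were compared with the Lyve1+ cells. With 1 library per group, a gene counted as higher or lower when the ratio of CPM + 1 reached 2-fold. By that measure 112 genes were higher (1.84%) and 172 were lower (2.83%), and the median log2 ratio over all genes was -0.08. The chemokine and cytokine list held 4 of the 15 leading higher genes, and the resident programme list held 7 of the 15 leading lower genes. The percentages are the background for each baseline list above and below.

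Il1b, the interleukin-1 beta gene, was at 1950 CPM (1908 to 1994) against 330 CPM (322 to 338) in Lyve1+ cells, a log2 ratio of 2.56 (counting interval 2.52 to 2.61). Ccl4 was at 2299 against 580 CPM (log2 ratio 1.98) and Ccl3 at 951 against 306 CPM (1.64). Both encode CC chemokines. Cxcl16, which encodes the ligand of CXCR6, was at 581 against 210 CPM (1.46). Cxcl9 and Cxcl10, interferon-inducible ligands of CXCR3, had log2 ratios of 2.55 and 2.53, but their UMIs lay in few cells. All 393 Cxcl9 UMIs came from 5 of the 828 cells, 346 of them from 1 cell, and 10 cells held 95.4% of the Cxcl10 UMIs. Without the cells that held Timd4 or Folr2 UMIs the Cxcl9 ratio was -0.95. In contrast, 580 cells held the Il1b UMIs, and the 10 highest of them held 10.0%.

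Of the 18 chemokine and cytokine genes tested, 6 were higher and 5 lower, with a median log2 ratio of 0.40. The higher ones were Il1b, Ccl3, Ccl4, Cxcl9, Cxcl10 and Cxcl16. The lower ones all encode CC chemokines. Ccl8 was at 12.3 against 135 CPM, Ccl6 at 365 against 1310 CPM, Ccl9 at 196 against 694 CPM, Ccl7 at 101 against 250 CPM and Ccl2 at 243 against 497 CPM. Tnf, at 104 against 87.1 CPM, and Cxcl2, at 1328 against 780 CPM, stayed within 2-fold. Of 14 interferon response genes none was higher and 1 was lower, Ifitm3, at 723 against 1578 CPM. None of 15 immediate-early and heat-shock genes, which respond to cell dissociation, reached 2-fold, and their sum was 19126 against 16915 CPM.

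Within the antigen presentation list, 8 genes other than the rule's own were tested, 4 were higher, none was lower, and the median log2 ratio was 0.92. Cd74 was at 23043 CPM (22895 to 23191) against 7411 CPM, Ciita at 183 against 68.5 CPM, H2-DMb1 at 498 against 207 CPM and H2-DMa at 694 against 314 CPM. Ctss, the protease that trims the invariant chain, was at 2226 against 1367 CPM, and the costimulatory gene Cd86 at 474 against 313 CPM. The cells were chosen for class II transcripts, so these neighbouring genes of the same pathway are a description.

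Cx3cr1, the fractalkine receptor, was at 930 against 322 CPM (log2 ratio 1.53). Tgfbr1, the type I receptor of TGF-beta, was at 456 against 119 CPM (1.93). Rgs1, a regulator of G protein signalling, was at 2020 against 530 CPM (1.93). Cadm1, a cell adhesion gene, was at 177 against 33.0 CPM (2.39), and Scimp, an adaptor of MHC class II signalling, at 176 against 40.8 CPM (2.08). Col14a1, a chain of collagen XIV, was at 315 against 86.4 CPM (1.86), and Mmp13, a collagenase, at 222 against 47.7 CPM (2.20). Nes, which encodes the intermediate filament protein nestin, was at 203 against 45.5 CPM (2.13). Fcgr4, an activating Fc receptor gene, was at 127 against 34.9 CPM and Klra2, of the Ly49 lectin receptor family, at 80.9 against 22.7 CPM. The transcription factor gene Runx3 was at 185 against 46.8 CPM and the corepressor gene Tle1 at 97.7 against 24.9 CPM, and Runx3 was the only 1 of 19 transcription factors tested that reached 2-fold.

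Most genes of the resident programme were lower. Of 23 resident genes tested, 19 were lower and 1 was higher, Fcgr4, with a median log2 ratio of -1.94. Folr2, the folate receptor beta gene, was at 61.2 CPM (53.8 to 69.3) against 952 CPM (939 to 965), a log2 ratio of -3.94. Timd4, a phosphatidylserine receptor gene, was at 12.6 against 148 CPM (-3.46), and F13a1, which encodes the A subunit of coagulation factor XIII, at 323 against 2668 CPM (-3.04). Cbr2 was at 141 against 902 CPM and Ccl24 at 60.9 against 391 CPM. Mrc1, the mannose receptor gene, kept 1127 CPM against 2544 CPM (-1.17), so it was reduced rather than near 0. Lists of resident genes were assembled around LYVE1-type cells, and the rule asks for the absence of Lyve1 and Cd163, so the direction of this list is bound to the rule.

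The lowest ratio was that of Ednrb, the endothelin B receptor gene, which was at 2.96 CPM (12 UMIs in all) against 152 CPM (log2 ratio -5.28, interval -6.64 to -4.88). Fcna, which encodes ficolin A, was at 2.47 against 100 CPM (-4.87), Fgfr1, a fibroblast growth factor receptor gene, at 3.95 against 102 CPM (-4.38) and Retnla, which encodes RELM alpha, at 27.6 against 593 CPM (-4.37). Colec12, a scavenger receptor gene, was at 11.6 against 174 CPM, Vsig4, a complement receptor gene, at 10.6 against 116 CPM, and Ltc4s, the leukotriene C4 synthase gene, at 34.3 against 403 CPM. Gda, the guanine deaminase gene, was at 13.1 against 128 CPM and Cfp, the properdin gene, at 36.8 against 272 CPM. S100a6 and S100a4, calcium-binding protein genes, were at 51.6 against 447 CPM and at 37.7 against 296 CPM. The rule also asks for the absence of Ccr2, so the Retnla, S100a6 and S100a4 values are not independent of it.

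Among the other lists most genes stayed within 2-fold. Of 14 lysosomal and lipid genes, Cd72, a C-type lectin gene, at 344 against 102 CPM, Cd9, a tetraspanin gene, at 298 against 93.9 CPM and Fabp5, a fatty acid-binding protein gene, at 91.3 against 38.7 CPM were higher, and Abca1, the cholesterol exporter gene, at 132 against 300 CPM was lower. Between cells of 4000 to 10000 UMIs on both sides, however, the log2 ratio of Fabp5 was -0.13. Only 48 MHC-II-high macrophages held a Fabp5 UMI, and 10 of them held 89.7% of its 370 UMIs. Of 10 efferocytosis and scavenger receptor genes, Axl, at 253 against 81.8 CPM, was higher and Colec12 lower. Of 11 integrin genes, Itgax and Itga6 (109 against 52.9 CPM) were higher and Itgam, which encodes CD11b, was lower at 120 against 245 CPM. Itga5, the fibronectin receptor alpha chain gene, was at 30.3 CPM (25.2 to 36.2) against 23.8 CPM (21.8 to 25.9). Of 6 angiogenic and growth factor genes, Pdgfb (140 against 53.4 CPM) was higher, and Ecm1 (19.7 against 97.7 CPM) and Emilin2 (32.6 against 80.4 CPM) were lower. None of 5 cell cycle genes reached 2-fold in either direction.

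Shares of cells with a UMI gave the same order at equal depth. After each cell was thinned to 2000 UMIs, which kept 722 MHC-II-high macrophages (106 shallower cells left out) and 2612 Lyve1+ cells (114 left out), Il1b was found in 65.4% (61.8 to 68.8) against 19.0% (17.5 to 20.5) of cells. In the 82 B cells thinned alike the share was 11.0%, taken as the background in cells that should lack the gene. Unthinned, the Il1b shares were 70.0% and 31.2%. Cx3cr1 was found in 72.4% against 32.4%, Tgfbr1 in 52.5% against 19.0% and Col14a1 in 37.8% against 12.7%, with 13.4%, 9.76% and 1.22% in the B cells. Folr2 was found in 7.62% against 69.0% and Timd4 in 1.25% against 22.7%, with 3.66% and 1.22% in the B cells. The Timd4 shares rested on 9 of 722 MHC-II-high macrophages and 1 of 82 B cells (interval 0.0309 to 6.61%). These are too few cells to place the Timd4 share relative to the background. Median depths before thinning were 5355.5, 8061 and 3460 UMIs.

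The cells were also split on Lyve1 and on MHC class II. The resulting groups differed in more than these features, because the Lyve1+ groups were not required to lack Cd163, Ccr2 or Ly6c2 UMIs. The Lyve1+ cells comprised 1083 MHC-II-high and 1643 MHC-II-low cells by the same limit, and 919 C1q-positive MHC-II-high cells without Lyve1 and Cd163 UMIs carried a Ccr2 UMI (called Ccr2+ MHC-II-high). Compared with Lyve1+ MHC-II-high cells, 67 genes were higher in the MHC-II-high macrophages (1.11% of 6018) and 92 lower (1.53%). Compared with Lyve1+ MHC-II-low cells, 144 were higher (2.36% of 6100) and 233 lower (3.82%). Compared with the 284 MHC-II-low cells that lacked the same 4 transcripts, 30 were higher (0.493% of 6088) and 143 lower (2.35%), and compared with the Ccr2+ cells 66 were higher (1.12% of 5897) and 84 lower (1.42%). All of these comparisons share the sum of the 828 cells, so they are not independent of each other. The 284 cells had a lower quartile of 991 UMIs, against 3674 in the MHC-II-high macrophages. They held 1737 against 220 CPM of the monocyte list and 635 against 247 CPM of the cell cycle list. The chemokine and cytokine list ran the other way, at 7790 against 9280 CPM. Class II level was thus not their only difference.

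Single genes ran differently over these groups. Ciita was at 183 CPM in the MHC-II-high macrophages, 149 in Lyve1+ MHC-II-high, 225 in Ccr2+ MHC-II-high, 15.0 in Lyve1+ MHC-II-low and 21.3 CPM in Lyve1-negative MHC-II-low cells. It thus ran with class II with and without Lyve1. The groups were split on class II transcripts, so the Ciita values are a description. Il1b was at 1950, 584, 932, 160 and 515 CPM in the same order, highest where Lyve1 and Ccr2 were both missing and class II was high. Col14a1 was at 315, 112, 144, 69.6 and 285 CPM, with the higher values in the 2 populations that lacked both Lyve1 and Ccr2. Folr2 was at 61.2, 654, 20.9, 1151 and 161 CPM, highest in both populations with Lyve1. Retnla was at 27.6 CPM, against 1073 in Lyve1+ MHC-II-high, 1450 in Ccr2+ MHC-II-high, 272 in Lyve1+ MHC-II-low and 303 CPM in Lyve1-negative MHC-II-low cells. S100a6, at 51.6 CPM, was likewise lower than in the other 4 groups, which ranged from 409 to 859 CPM. The rule asks for 0 Ccr2 UMIs, and both Retnla and S100a6 were highest in the Ccr2+ cells. Their low levels are therefore not independent of the rule. Of the 15 leading higher genes, all 15 were above the level of Lyve1+ MHC-II-high, Lyve1+ MHC-II-low and Ccr2+ cells and 14 above that of Lyve1-negative MHC-II-low cells, Nes being the exception at 203 against 204 CPM. Of the 15 leading lower genes, all 15 were below both Lyve1+ groups and the Lyve1-negative MHC-II-low cells, but 8 were below the Ccr2+ cells.

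**Figure D2:**
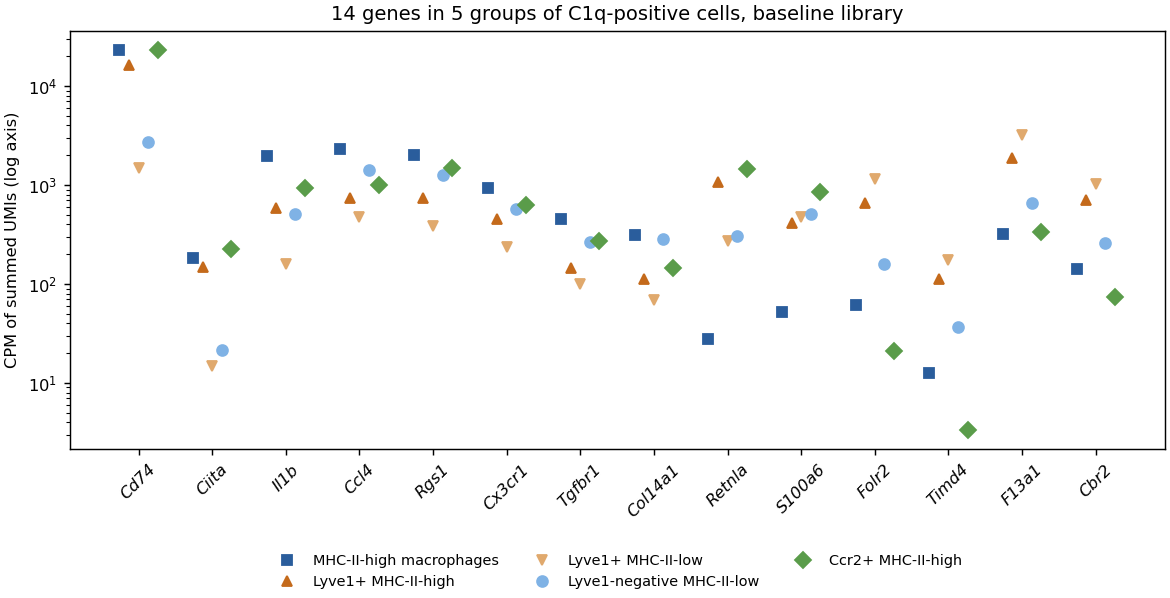
CPM of summed UMIs (y axis, log axis) for 14 genes (x axis) in 5 groups of C1q-positive baseline cells, 1 marker per group and no replicate. The MHC-II-high macrophages have the highest Il1b level (1950 CPM) and the lowest Retnla (27.6 CPM) and S100a6 (51.6 CPM) levels of the 5 groups.

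The population was not uniform in its class II level. It held 109 cells of 50 to 100 class II UMIs per 10000, 215 of 100 to 200, 223 of 200 to 300 and 281 of 300 or more. Cd74 stood at 10244, 16679, 23254 and 31940 CPM in these classes, Ciita at 74.7, 131, 204 and 240 CPM and H2-DMa at 342, 457, 753 and 943 CPM. Il1b stood at 1109, 1623, 2089 and 2360 CPM, whereas Ccl4 stood at 2584, 2330, 2191 and 2274 CPM. F13a1 stood at 534, 368, 321 and 222 CPM and Folr2 at 129, 70.7, 65.6 and 28.3 CPM. Cd74, Ciita, H2-DMa and Il1b were thus higher in each class than in the one before, F13a1 and Folr2 were lower, and Ccl4 had no such order. Timd4, at 24.9, 3.72, 25.9 and 4.35 CPM, had none either. Cells that are richer in class II hold a smaller share of every other transcript in CPM, which was not corrected here.

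**Figure D3:**
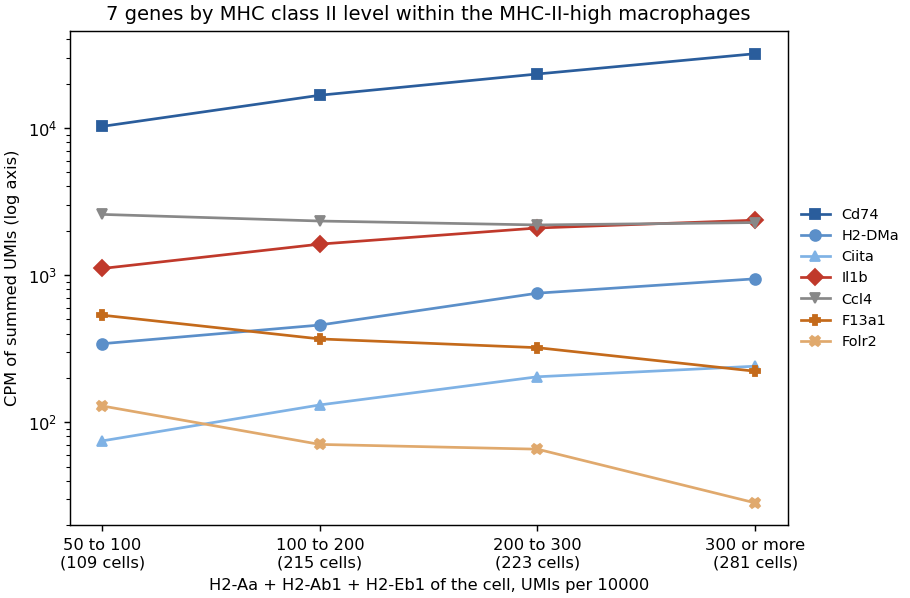
CPM of summed UMIs (y axis, log axis) for 7 genes in the 828 cells split into 4 classes of class II level (x axis, UMIs per 10000, cell numbers in brackets). Cd74, H2-DMa, Ciita and Il1b climb from the first to the last class, F13a1 and Folr2 descend, and Ccl4 stays between 2191 and 2584 CPM.

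Whether the same contrast held in other hearts was examined in the infarct libraries, whose cells were chosen by the same rule. Genes that run with the rule's own transcripts are therefore not independent of that choice. The same rule found 591, 774 and 670 cells in infarct replicates 1, 2 and 3, a share of 6.50% ± 0.755 (SD, n = 3) of the cells, and 221, 65 and 294 Lyve1+ cells. The baseline share of 8.09% lay above all 3 infarct shares (5.68 to 7.18%). After thinning to 2000 UMIs the shares were 15.0% at baseline (14.3 to 15.8) and 13.7% on average in the infarcts. The infarct shares ran from 12.6 to 14.9%, and the 14.9% of replicate 2 lay inside the baseline interval. Summed counts of the 2 populations were compared within each heart by the edgeR quasi-likelihood test, each heart being its own control through a block term. With p-values adjusted by Benjamini-Hochberg and a threshold of 0.01, 1008 of 10497 genes were higher in the MHC-II-high cells (9.6%) and 1164 were lower (11.1%).

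Of the 112 genes that were higher at baseline, 111 were tested and 92 were higher in the infarcts (82.9%, against 9.6% of all genes), with a median log2 fold change of 1.43. Of the 172 genes that were lower, 170 were tested and 117 were lower (68.8%, against 11.1% of all genes), with a median of -1.10. Only 3 genes were called in the opposite direction. These were Cxcl14 (log2 ratio 2.23 at baseline, fold change -1.28 in infarcts), Fcrls (-1.05 and 1.63) and Rnase4 (-1.13 and 0.65), chosen after their values were seen. Without infarct replicate 3, 403 genes were higher and 529 lower over all genes. Over all alternatives the number of baseline genes called again ranged from 79 to 97 for the higher and from 96 to 120 for the lower ones. The same rule chose the cells in both conditions, so this recurrence is not independent of the rule. The baseline genes averaged 20 CPM or more, while the shares of all genes include lower ones, so these shares are not of like genes.

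Il1b was at 648, 706 and 615 CPM in the MHC-II-high cells of the 3 infarct hearts and at 162, 186 and 126 CPM in their Lyve1+ cells. The groups did not overlap, and the log2 fold change was 2.28 ± 0.13 (edgeR adjusted p = 6.0e-09). The value after ± is an approximate SE, taken from the fold change and its quasi-likelihood F statistic. Cx3cr1 was at 850, 798 and 790 CPM against 236, 330 and 211 CPM, again without overlap (1.89 ± 0.14, adjusted p = 8.7e-08). Ccl4 was at 1551, 1682 and 1224 CPM against 432, 659 and 325 CPM (1.91 ± 0.13, adjusted p = 5.1e-08). Tgfbr1 (log2 fold change 1.97), Rgs1 (1.97), Col14a1 (1.81), Cadm1 (2.42) and Runx3 (1.43) were also higher in all 3 hearts. Cd74 was at 14438, 14416 and 14383 CPM against 3688, 3203 and 2597 CPM (2.41 ± 0.12). The infarct cells too were chosen for class II transcripts, so the Cd74 values are a description.

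Of the lower genes, Retnla was at 1.17, 0.917 and 0.896 CPM in the MHC-II-high cells against 272, 164 and 222 CPM in the Lyve1+ cells. Its edgeR log2 fold change was -7.52 (adjusted p = 4.2e-12), from only 14 UMIs in all MHC-II-high cells of the infarcts. Folr2 had a fold change of -3.66, Timd4 of -6.92, Vsig4 of -7.51, Ednrb of -5.44 and F13a1 of -3.04, each lower in all 3 hearts. Timd4 and Vsig4 rested on 3 and 6 UMIs in the MHC-II-high cells. The rule asks for the absence of Lyve1 and Cd163 here too, so the direction of resident genes such as Folr2 and Timd4 is bound to it. It also asks for the absence of Ccr2, so the Retnla contrast is not independent of it either. In all, 13 of the 15 leading higher genes and 14 of the 15 leading lower genes passed the test in the same direction. Nes missed it (0.97, adjusted p = 0.042), as did Klra2 (-0.41, adjusted p = 0.097) and Ccl8 (-0.05, adjusted p = 0.80). Ccl8 was high in both infarct populations, at 510 ± 340 and 669 ± 585 CPM (SD, n = 3). Of the genes with the greatest fold changes in the infarcts, Ccr7, a chemokine receptor gene of migratory dendritic cells, Gm15232, Zfyve28 and Dnase1l3 were higher from only 42 to 92 UMIs in all MHC-II-high cells, next to Cxcl9 (5.00). Retnla, Vsig4, Timd4, Ackr3, a chemokine scavenging receptor gene, and Bcam, a laminin receptor gene, were the lowest.

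**Figure D4:**
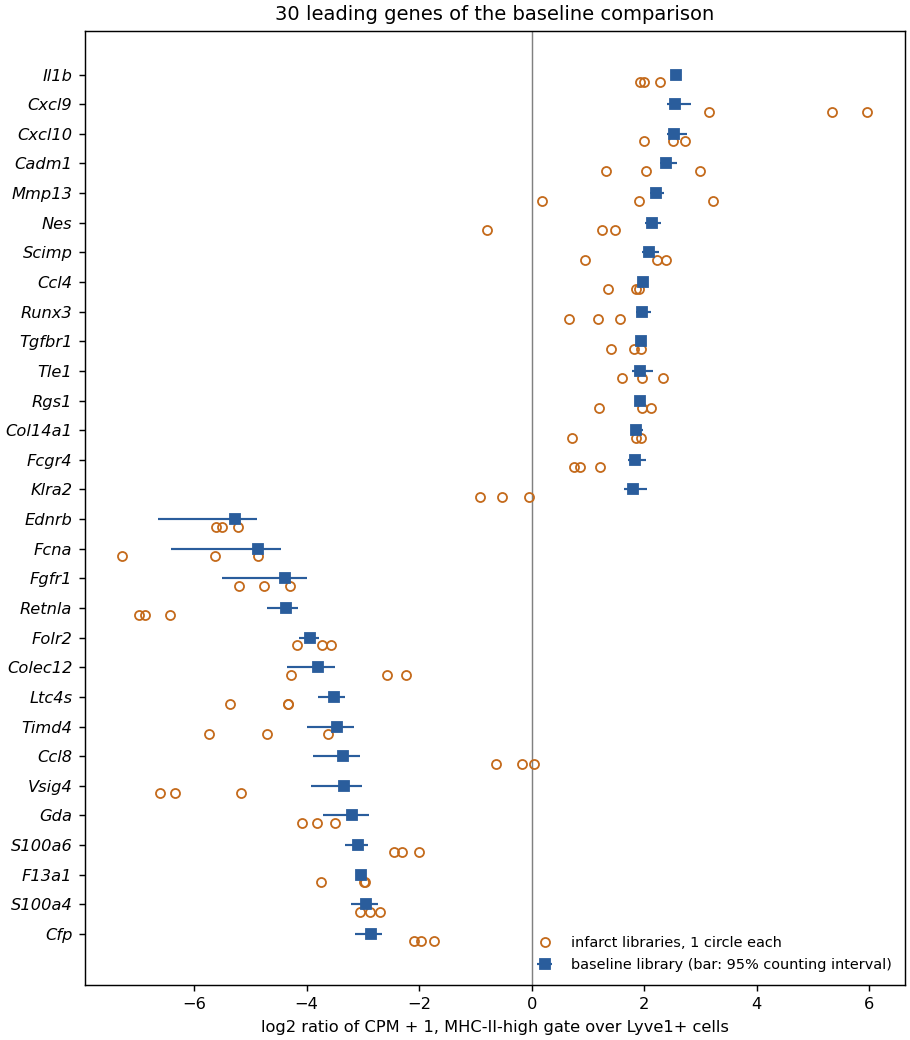
Log2 ratio of CPM + 1 between MHC-II-high and Lyve1+ cells (x axis) for the 30 leading baseline genes (y axis), with the baseline library as a square with its 95% counting interval and each of the 3 infarct libraries as a circle. The infarct circles lie on the side of the square for 27 of the 30 genes, the exceptions being Nes, Klra2 and Ccl8.

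By lists, against 9.6% of all genes higher and 11.1% lower, 6 of 13 class II genes, 10 of 15 macrophage genes, 10 of 23 chemokines and cytokines and 10 of 16 interferon response genes were higher in the infarct MHC-II-high cells, with median log2 fold changes of 0.92, 0.77, 0.16 and 0.66 against 0.01 over all genes. In the same lists 1, 1, 7 and 1 genes were lower. Of 24 resident genes 15 were lower and 2 higher (median -1.54). The directions of the class II and resident lists are bound to the rule, as at baseline. The Lyve1+ cells of the infarcts were not the Lyve1+ cells of baseline. Arg1, the arginase gene, was at 1656 ± 491 CPM in them against 4.47 CPM in baseline Lyve1+ cells, and Marco, a scavenger receptor gene, at 263 ± 133 against 0.921 CPM. All 10 cell cycle genes were lower in the MHC-II-high cells of the infarcts, and 10 of 15 immediate-early genes were higher, with a median of 0.62. The part of these differences in the infarct fold changes was not tested.

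The levels of MHC-II-high cells themselves were set side by side in both conditions. Of 5762 genes, 149 (2.59%) were 2-fold or more higher than at baseline in the infarct mean with all 3 libraries above, and 360 (6.25%) were lower with all 3 below. Apoe, the apolipoprotein E gene, was at 46364, 51932 and 49682 CPM against 13889 CPM at baseline, and Trem2, the lipid-sensing receptor gene, at 870.5, 1002 and 899 CPM against 209 CPM. Il1b was at 656 ± 46.3 CPM against 1950 CPM, Mmp13 at 12.2 ± 3.45 against 222 CPM and Nes at 18.3 ± 1.25 against 203 CPM. Infarction and the library preparation cannot be told apart here, since the only baseline library was a pool.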

How the data were processed

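EGFP+ Ly6G-negative cells were profiled with the 10x Genomics 3' assay. The authors deposited per-cell UMI counts from Cell Ranger aligned to mm10 (version 3.1.0 in the file headers, 3.0.1 in the submitters' processing notes). A cell was kept if it held 500 to 40000 UMIs from more than 200 genes. Members and gene lists were chosen with earlier results of these data known. Counts were summed per population and library without mitochondrial genes and scaled to CPM. Ratios used CPM + 1, a minimum mean of 20 CPM, and intervals were exact and cover counting error only. The 30 leading genes were the 15 highest and 15 lowest ratios at a mean of 50 CPM or more, with 5 each way in infarcts. Infarct sums were tested with edgeR 4.0.16 (R 4.3.3, TMM). On simulated data 84% of 200 genes changed 2-fold were recovered among 10505 genes in the infarct comparison. The changed genes were drawn from those at 20 CPM or more, with a fixed dispersion not estimated from these data. The 84% therefore does not describe lower genes or the real spread between hearts. The block is the heart: both populations came from the same animal, and their deviations correlated at 0.33 to 0.41. Doublets were scored with Scrublet (scanpy 1.11.5) and left in, and the 8.10 to 8.63% highest scores were removed as an alternative, since the automatic threshold marked 0 to 3 cells in the infarct libraries. CPM compares a gene between populations, not genes with each other.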

Additional observations from a re-analysis of the deposited data

Results flagged for a closer look

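Klra2 was the only leading gene whose contrast ran in the opposite direction in the 2 conditions. Its log2 ratio of MHC-II-high to Lyve1+ cells was 1.79 in the baseline library, and it was -0.54, -0.05 and -0.92 in the 3 infarct libraries, with a mean of -0.50. The difference between the conditions was not tested.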

How the results depend on the processing

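The baseline share of 8.09% was 15.0% after thinning to 2000 UMIs, 7.51% in cells of 4000 UMIs or more, 7.02% at a class II limit of 100 and 6.68% without Timd4 and Folr2 UMIs, and the infarct share of 6.50% was 13.7%, 4.03% and 5.63% under thinning, the higher limit and the exclusion. Without a minimum of CPM, 311 genes were higher and 516 lower at baseline. The other 13 baseline alternatives gave 94 to 144 and 149 to 233 genes, with 122 and 149 under TMM scaling, which moved the median ratio of all genes from -0.08 to -0.03. In the infarcts 446 genes were higher and 398 lower after thinning, and 560 and 698 by the DESeq2 Wald test. Without the replicate block they were 723 and 905. Leaving out 1 heart gave 403 to 1347 higher and 529 to 1493 lower genes, the lowest without infarct replicate 3. At baseline 83 of 89 named genes kept the sign of their ratio in every alternative. Among those with a ratio of 2-fold or more, the sign turned for Cxcl9 without Timd4 and Folr2 UMIs (-0.95) and for Fabp5 between cells of 4000 to 10000 UMIs (-0.13). In infarcts it turned for genes that missed the threshold: Klra2 after thinning (0.63), Ccl8 (0.0205 in cells of 4000 UMIs or more), Abca1 (0.001 in those cells, 0.0187 without dendritic and B cell UMIs and 0.0132 with no filter on low counts) and, leaving out 1 heart, Ccl8 (-0.1816 to 0.1224), Mertk (-0.1478 to 0.0319), Itga5 (-0.0665 to 0.3088) and Abca1 (-0.1346 to 0.174). The cause of these changes was not tested. In the MHC-II-high macrophages at baseline, all Cxcl9 UMIs lay in 5 cells, and 10 cells held 89.7% of the Fabp5 UMIs. Baseline values rest on 1 pooled library, and replicate 2 had 65 Lyve1+ cells.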
